A study of Mus musculus with 7 samples.

Results

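The genes described here are 9 members of the olfactory signal transduction machinery: Gng8, Gng13, Gnal, Gnas, Adcy3, Cnga2, Cnga4, Ano2 and Omp. They were named one by one for their known roles and by no threshold on a value, in a list set with earlier results of these data known, and are 9 of 30355 genes counted in all the libraries used. Raw UMIs (unique molecular identifiers, 1 per captured transcript) were counted in single cells of whole mouse noses at embryonic day 14.5 with 3′ droplet libraries. Wild-type (WT) noses were of the outbred CD1 IGS strain, with 5 libraries, and the labels name no transgene for them. The labels' protocols speak of 5 CD1 IGS noses but do not tie each library to a nose, so p-values measure the spread between captures, which may be technical. WT replicate 3 held the barcodes of replicate 4 (7386 shared) and was left out, which leaves 4 WT captures. The other 2 libraries came from the suspension of 1 nose of the same age that carried ProKR2iCre, a Cre recombinase made where prokineticin receptor 2 is expressed, and the R26tdTomato reporter, which turns red and stays so in cells with Cre and in their progeny. That suspension was sequenced sorted and unsorted, and the sample labels do not say which library is which. Prokr2Cre libraries 1 and 2 were therefore described singly, without a test and not as replicates. Barcodes entered where 500 or more genes were detected and mitochondrial transcripts made up no more than 10% of UMIs.

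In an olfactory sensory neuron, an odorant receptor on the cilia activates a stimulatory G protein, adenylyl cyclase then makes cyclic AMP, and cyclic AMP opens a cation channel whose calcium opens a chloride channel that amplifies the current. Neurons arise from precursors of the olfactory epithelium that express the transcription factors Neurog1 and Neurod1, pass through an immature stage marked by Gap43, and reach maturity marked by Omp. Parts of the machinery are known to be exchanged on the way: the general stimulatory subunit Gαs (Gnas) gives way to Gαolf (Gnal), and the γ subunit encoded by Gng8, known from immature neurons, to that encoded by Gng13.

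The promoters of the γ subunits and of both cyclic nucleotide-gated channel genes are shown because the levels of Gng8, Gng13 and Cnga2 before the late step of the neuronal series described below differed, with Cnga4 beside its partner Cnga2. Sequences are from RefSeq on GRCm38.p6, on the + strand, from 250 bases before to 50 after the annotated start. Capitals mark CCCNNGGG, the core of the motif bound by early B cell factors (EBF, also called Olf-1), searched on both strands.

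Gng8, chr7:16891536-16891835: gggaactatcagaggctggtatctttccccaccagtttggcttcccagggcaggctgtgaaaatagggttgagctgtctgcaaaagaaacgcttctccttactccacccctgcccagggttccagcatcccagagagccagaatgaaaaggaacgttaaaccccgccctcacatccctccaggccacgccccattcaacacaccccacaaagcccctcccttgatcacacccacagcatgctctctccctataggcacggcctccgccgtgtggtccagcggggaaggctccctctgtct
Gng13, chr17:25716922-25717221: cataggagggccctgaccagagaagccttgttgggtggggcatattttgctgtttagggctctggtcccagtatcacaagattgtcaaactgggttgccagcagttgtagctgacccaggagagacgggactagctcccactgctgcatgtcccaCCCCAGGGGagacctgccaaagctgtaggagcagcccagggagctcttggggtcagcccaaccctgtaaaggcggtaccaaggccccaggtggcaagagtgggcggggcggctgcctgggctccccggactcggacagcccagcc
Cnga2, chrX:71991599-71991898: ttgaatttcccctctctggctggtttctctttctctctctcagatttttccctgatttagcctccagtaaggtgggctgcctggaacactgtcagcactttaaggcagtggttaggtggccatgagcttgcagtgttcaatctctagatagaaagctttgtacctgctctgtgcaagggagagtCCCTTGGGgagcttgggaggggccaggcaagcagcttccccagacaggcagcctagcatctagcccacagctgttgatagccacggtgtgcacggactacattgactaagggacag
Cnga4, chr7:105404318-105404617: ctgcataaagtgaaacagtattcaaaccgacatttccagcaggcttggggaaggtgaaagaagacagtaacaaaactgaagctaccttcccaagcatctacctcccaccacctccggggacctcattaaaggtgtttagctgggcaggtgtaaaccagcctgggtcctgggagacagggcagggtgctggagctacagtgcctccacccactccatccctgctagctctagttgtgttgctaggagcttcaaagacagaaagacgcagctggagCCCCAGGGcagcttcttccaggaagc

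The Gng13 window held 2 overlapping matches, the first starting 95 bases before the start. The Cnga2 match lay 66 bases before the start, the Cnga4 match 24 bases after it, and the Gng8 window held none. Of 32851 promoters of 300 bases in the table, 13.7% held the motif, so a match is common and is given as a description only. In all, 7 of the 9 members matched the table with 14 start sites. Of the other sites, 1 of Gnas and 1 of Ano2 held a match, and those of Adcy3 and the second of Gng13 held none.

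The build named in the submitters' processing notes is mm10 (GRCm38). On it Gng8 spans chr7:16891786-16895436, Gng13 chr17:25717171-25719406, Gnas chr2:174284320-174346744, Adcy3 chr12:4133103-4213525, Cnga2 chrX:71991849-72010218, Cnga4 chr7:105404568-105408742 and Ano2 chr6:125690419-126040126, all on the + strand, and Omp chr7:98143359-98145502 on the - strand. Counts are of whole genes, so transcript forms of Gnas were not told apart. Omp lies inside a stretch of Capn5 without sharing exons, and Gnal overlaps Chmp1b on the same strand without sharing exons. Exons of Gng13 overlap those of Chtf18 on the opposite strand, Gnal those of Mppe1, Gnas those of Nespas and Gm20721, and Adcy3 those of Cenpo. Whether the authors' counting used strand is not given in the sources used here, so these members carry that uncertainty.

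The kept cells numbered 7790, 10496, 7029 and 3250 in WT replicates 1, 2, 4 and 5, and 1789 and 1111 in Prokr2Cre libraries 1 and 2, with median depths of 5126.5 to 13692 UMIs. Neurons were taken as cells with at least 2 UMIs of Gap43, a growth cone protein, and at least 1 of Stmn3, a neuronal stathmin. This gate held 143, 68, 78 and 27 cells in the WT captures and 37 and 219 in the Prokr2Cre libraries. The label of neuron held for only part of them: 112, 47, 57 and 8 WT cells had at least 3 of 6 neuronal markers (Stmn2, Elavl3, Elavl4, Dcx, Ina, Nhlh2), while 29, 15, 28 and 15 had at least 3 of 6 mesenchyme markers. Gated cells with at least 3 neuronal and fewer than 3 mesenchyme markers are called checked neurons below, a rule added after the cells had been counted. They were 71.3%, 63.2%, 61.5% and 25.9% of the gate in WT, 37.8% in Prokr2Cre library 1 and 86.8% in library 2. WT replicate 5 and Prokr2Cre library 1 thus stand apart. Of the vomeronasal marker Tfap2e the WT gates held 4 UMIs, all in replicate 1. At least 3 of 4 terminal nerve markers (Gnrh1, Cntn2, Prph, Gal) were found in 6, 1, 1 and 0 checked WT neurons, and in 2 and 30 of the Prokr2Cre libraries.

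Over the 4 captures, gated neurons held UMIs of every member, with Gnas and the γ subunits far above the channels. Levels are CPM, the UMIs of a gene in the summed cells scaled to a common total. A 3′ library gives 1 count per transcript whatever its length, so genes can be set beside each other on this scale. The members span 2144 (Omp) to 349708 bases (Ano2), and whether intronic reads were counted is not known. The order of genes is therefore approximate. Gnas was highest at 1313 ± 220 CPM (SD, n = 4 captures), followed by Gng8 at 453 ± 131 and Gng13 at 328 ± 321. Omp followed at 38.7 ± 27.8, Gnal at 37.5 ± 34.4 and Adcy3, the type III adenylyl cyclase, at 29.4 ± 17.3. Ano2, the calcium-activated chloride channel, stood at 15.3 ± 2.54, Cnga2, the main subunit of the cyclic nucleotide-gated channel, at 12.0 ± 14.4, and Cnga4, its modulatory subunit, at 2.05 ± 1.95. In this order Gng8 and Gng13 did not differ beyond their spread, nor did neighbours from Omp to Cnga2.

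Part of the spread lay with a single capture or with the cells that failed the check. In WT replicates 1, 2, 4 and 5, Gng13 was at 801, 251, 143 and 117 CPM, highest in replicate 1. Without replicate 1 its mean was 170 CPM. Gnal, the olfactory α subunit, was at 88.1, 22.6, 27.9 and 11.5 CPM, with a mean of 20.7 without replicate 1. Cnga2 was at 33.6, 5.02, 4.78 and 4.60 CPM, from 72, 4, 6 and 2 UMIs, with a mean of 4.80 without replicate 1. Replicate 1 was thus the highest capture for all 3 of these genes. Gng8 was at 588, 527, 398 and 297 CPM, lowest in replicate 5, whose gate held the fewest checked neurons. Omp was at 67.6, 30.1, 3.98 and 52.9 CPM, lowest in replicate 4. In the gated cells that failed the check, Gng8 was at 163 ± 61.6 CPM (SD, n = 4), against 668 ± 91.2 (n = 3) in checked neurons. Omp was at 14.6 CPM in the failed cells of replicate 1 and at 0 in those of the other 3 captures. Gnas showed no such gap, with 1341 ± 233 CPM in failed cells and 1179 ± 215 in checked neurons.

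The share of gated cells with at least 1 UMI followed the same order for the abundant members. Over the WT captures it was 96.5 to 100.0% for Gnas, 44.4 to 82.5% for Gng8, 18.5 to 59.4% for Gng13, 18.5 to 21.8% for Adcy3, 11.8 to 25.9% for Ano2, 3.70 to 31.5% for Gnal, 5.13 to 28.0% for Cnga2, 5.13 to 24.5% for Omp and 0 to 3.70% for Cnga4. Immune cells, which should lack the olfactory members, gave 0 to 1.92% for Gng8, 0 for Gng13 and 0 to 1.63% for Omp, but 5.77 to 11.8% for Adcy3. Their median depth of 8560.5 to 14047 UMIs was close to the 8286.5 to 14365 of gated neurons. After each cell was thinned to 2000 UMIs, the mean share was 44.1% for Gng8, 26.2% for Gng13, 5.72% for Gnal, 5.09% for Omp, 3.98% for Adcy3 and 2.43% for Cnga2, and Cnga4 was detected in no gated cell.

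Against all WT cells outside the neuronal lineage (27846 cells, without gated cells, precursors and cells with 3 neuronal markers), 8 members could be tested in gated neurons. The sums per capture were compared with the quasi-likelihood test of edgeR, with the capture as a block and p-values adjusted over 15518 genes, of which 32.5% were called (16.1% higher, 16.4% lower). Omp, Cnga2 and Ano2 passed the filter on low counts only through the neuron sums and could be called in no other direction, so the number of members called is not read as a result. With no filter edgeR called these 3 as well (adjusted p = 8.84e-11, 9.58e-07 and 5.99e-06). Omp was higher by 9.98 on the log2 scale (SE 0.47, edgeR adjusted p = 1.62e-07), from 8 UMIs outside neurons in all. Cnga2 was higher by 8.94 (SE 0.86, edgeR adjusted p = 2.96e-05), from 4 UMIs outside and 84 in neurons, of which replicate 1 gave 72. Gng13 was higher by 7.39 (SE 0.24), Ano2 by 5.67 (SE 0.68), Gng8 by 5.08 (SE 0.16) and Gnal by 3.39 (SE 0.62), with edgeR adjusted p from 8.31e-09 to 0.00187. Adcy3 was higher by 1.15 (SE 0.27, edgeR adjusted p = 0.00831), from 19.6, 23.9, 19.1 and 55.2 CPM in neurons and 5.16, 11.0, 14.1 and 17.3 CPM outside. The value of replicate 5 rested on 1 cell with 16 of its 24 UMIs and was 19.4 CPM without it. This call was lost with no block (edgeR adjusted p = 0.0947) and without replicate 1 (0.0508). These 7 were higher in 4 of 4 captures. Over the 15 alternatives the log2 difference ran from 9.53 to 11.00 for Omp, 7.50 to 9.95 for Cnga2, 6.95 to 8.29 for Gng13, 4.90 to 6.40 for Ano2, 4.37 to 6.002 for Gng8, 2.33 to 4.24 for Gnal and 0.90 to 1.67 for Adcy3. Those of Cnga2 and Gnal were lowest without replicate 1. Gnas alone among the members tested was lower, by -0.43 (SE 0.12, edgeR adjusted p = 0.0188). It was higher in neurons in 1 of 4 captures, with 1139, 1106, 1491 and 1515 CPM in neurons against 1579, 1549, 1461 and 1736 outside, and its call was lost with no block (0.219), without replicate 1 (0.117), without replicate 2 (0.155) and with a looser gate (0.176). With checked neurons in place of all gated cells it was lower by -0.65 (edgeR adjusted p = 0.0022). Cnga4 had too few counts to be tested.

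To follow the order of onset, cells of the neuronal lineage were put in 3 steps by genes that are not members. Precursors lay outside the gate with at least 2 UMIs of Neurog1 and Neurod1 and at least 1 of the olfactory panel Lhx2, Emx2, Fezf1, Ebf2 and Ebf3. Late neurons lay inside the gate with at least 1 UMI of the late panel Stoml3, Rtp1, Rtp2, Cngb1, Umodl1 and Gfy, genes of cilia and receptor trafficking. Intermediate cells were other cells with an olfactory panel UMI and none of the late panel, inside the gate or not. All had to have at least 3 neuronal and fewer than 3 mesenchyme markers. In WT replicates 1, 2, 4 and 5 there were 45, 59, 73 and 11 precursors, 21, 38, 28 and 9 intermediate cells and 86, 29, 35 and 6 late neurons. Sums under 10 cells were left out, so replicate 5 entered with precursors only. Median depths of precursors in replicates 1, 2 and 4 were 9216, 6539 and 8186 UMIs. They were 6813, 5932 and 6510.5 in intermediate cells and 10421.5, 9134 and 9222 in late neurons. Shares of cells with a UMI are therefore not read at a like depth between steps. These steps were chosen after an earlier division had left 1 capture with 10 cells of its early step.

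**Figure D1:**
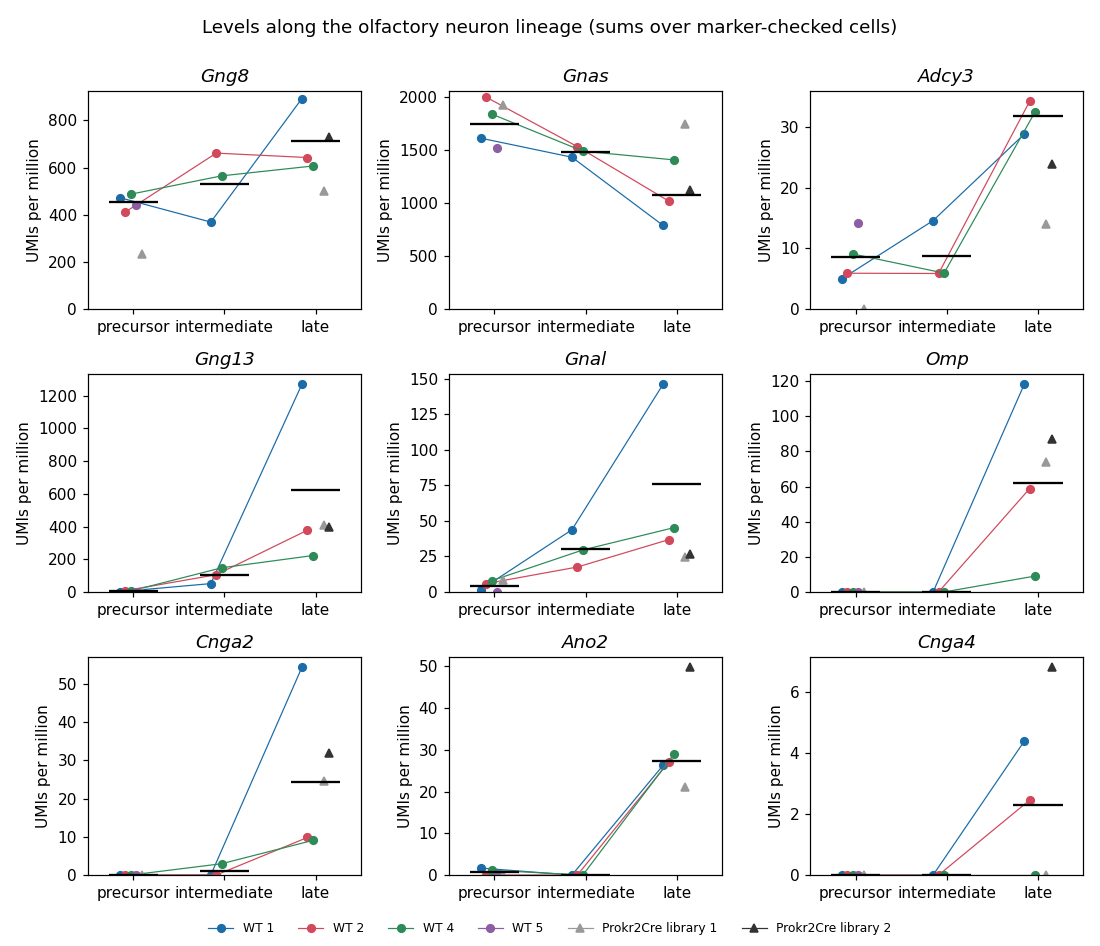
Levels of the 9 members in precursors, intermediate cells and late neurons, in CPM on linear axes that start at 0 and differ in range, 1 panel per gene. Points are captures or Prokr2Cre libraries with at least 10 cells at that step, lines join the points of a capture and black bars are WT means. Gng8 and Gnas are high at every step, Gng13 and Gnal climb from a few CPM in precursors, and Omp, Cnga2, Ano2 and Cnga4 are at or near 0 before the last step.

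Gng8 was present from the first step. In precursors it was at 472, 411, 487 and 441 CPM (replicates 1, 2, 4 and 5), in intermediate cells at 369, 661 and 565 CPM (replicates 1, 2 and 4) and in late neurons at 893, 643 and 607 CPM. The intermediate captures overlapped both neighbours. The log2 difference from precursors to late neurons was 0.57 (SE 0.21) and did not pass the test (edgeR adjusted p = 0.0805). Expressed as a share of the late level of the same capture, Gng8 already stood at 65.7% ± 13.8 (SD, n = 3) in precursors.

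Gng13 was nearly absent from precursors. It was at 1.66, 7.86, 5.67 and 0 CPM there, at 51.1, 105 and 148 CPM in intermediate cells and at 1271, 378 and 223 CPM in late neurons, with no overlap between any of the steps. It rose from precursors to intermediate cells by 4.41 on the log2 scale (SE 0.86, edgeR adjusted p = 0.0125). Of 7654 genes tested, 6.47% were called in that comparison (3.76% higher, 2.7% lower). The call was lost without replicate 2 (edgeR adjusted p = 0.114). From precursors to late neurons the rise was 6.59 (SE 0.75, edgeR adjusted p = 0.000202), in 3 of 3 captures, and 5.34 without replicate 1. In that comparison 18.9% of the same genes were called (10.1% higher, 8.74% lower). The step from intermediate to late did not pass (log2 difference 2.18, SE 0.55, edgeR adjusted p = 0.0886), although the level was higher in 3 of 3 captures. It passed in 3 of 15 other settings. These were no filter (edgeR adjusted p = 8.81e-20), without replicate 4 (0.0353) and without cells holding other class markers (0.0346).

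The balance of the γ subunits moved with these levels. Gng13 made up 0.351%, 1.88%, 1.15% and 0% of the UMIs of Gng8 and Gng13 together in precursors, 12.2%, 13.7% and 20.7% in intermediate cells and 58.7%, 37.0% and 26.9% in late neurons. The mean shares were 0.845% ± 0.841 (SD, n = 4), 15.6% ± 4.57 (n = 3) and 40.9% ± 16.3 (n = 3). The steps did not overlap. In every late WT sum but that of replicate 1, Gng8 was still the more abundant γ subunit.

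**Figure D2:**
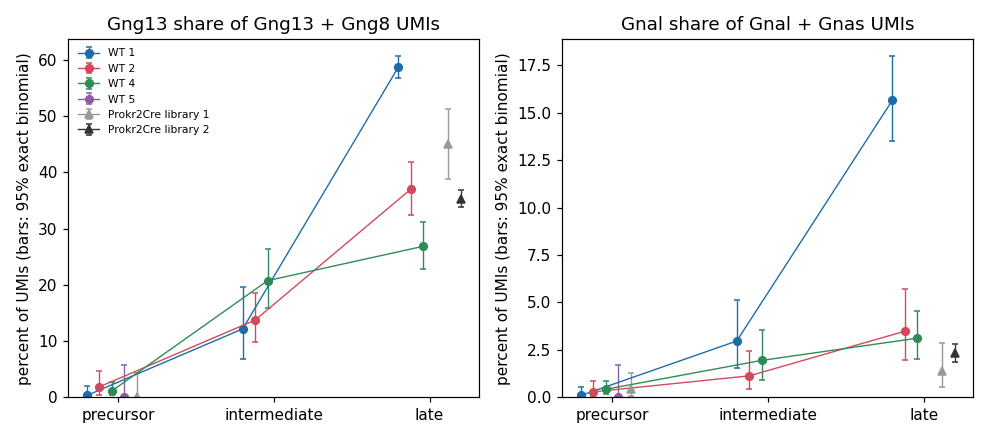
Share of Gng13 among UMIs of Gng8 and Gng13 (left) and of Gnal among UMIs of Gnas and Gnal (right), in percent, at each step. Points are captures or libraries and bars are exact binomial 95% intervals, which cover counting error only. The Gng13 share climbs to 26.9 to 58.7% in late WT neurons while the Gnal share stays at or under 15.7%.

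The α subunits showed a smaller shift. Gnal was at 1.66, 5.90, 7.94 and 0 CPM in precursors, at 43.8, 17.6 and 29.6 CPM in intermediate cells and at 146, 36.8 and 45.3 CPM in late neurons. All intermediate captures lay above all precursor captures, and the rise of 2.40 on the log2 scale (SE 0.62) passed narrowly (edgeR adjusted p = 0.0432), in 8 of 14 settings tried. It was lost with no block (edgeR adjusted p = 0.169) and without replicates 1, 2 and 4 in turn (0.131, 0.157 and 0.0802). The rise from precursors to late neurons was 3.56 (SE 0.51, edgeR adjusted p = 0.000781), and 2.46 without replicate 1. Gnas was at 1610, 1997, 1837 and 1514 CPM in precursors, at 1431, 1531 and 1488 CPM in intermediate cells and at 787, 1018 and 1405 CPM in late neurons. It fell by 0.86 on the log2 scale from precursors to late neurons (SE 0.14, edgeR adjusted p = 0.00146), in 3 of 3 captures. That call was lost with no block (0.0938), without replicate 2 (0.0893) and with a looser gate (0.111). Late neurons still held 3.12 to 15.7% Gnal among the UMIs of both α subunits, with a mean of 7.43% ± 7.14 (SD, n = 3) and of 3.30% without replicate 1, against 0.207% ± 0.193 (n = 4) in precursors, so Gnas remained the more abundant transcript at the latest step measured.

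Adcy3, the enzyme downstream of both α subunits, was present at a low level throughout, in precursors no higher than outside the lineage. It was at 4.99, 5.90, 9.08 and 14.2 CPM in precursors, at 14.6, 5.85 and 5.92 CPM in intermediate cells and at 28.9, 34.3 and 32.6 CPM in late neurons. In cells outside the neuronal lineage of the same 4 captures it was at 5.16, 11.0, 14.1 and 17.3 CPM, above the precursors of each. Precursors and intermediate cells overlapped, and late neurons lay above both. The rise from precursors to late neurons was 2.08 on the log2 scale (SE 0.46, edgeR adjusted p = 0.00885), lost with DESeq2 (adjusted p = 0.0578) and without replicate 2 (edgeR adjusted p = 0.0882).

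The channels were at or near 0 before the late step. Ano2 was at 1.66, 0, 1.14 and 0 CPM in precursors, at 0 in all 3 intermediate captures and at 26.3, 27.0 and 29.0 CPM in late neurons, the narrowest spread of any member in late neurons. From intermediate cells to late neurons it rose by 6.77 in the edgeR fit (SE 1.28, edgeR adjusted p = 0.0386), a fitted value against captures at 0. Ano2 passed the filter only through the late sums, and with no filter its edgeR adjusted p was 5.59e-06. Over the summed captures the late level was at least 8.62-fold higher, taking 3 UMIs over all intermediate cells as the floor, and at least 5.54-fold without replicate 2 or 5.43-fold without replicate 4. In that comparison 1.53% of 7654 genes were called (0.81% higher, 0.719% lower), and the call of Ano2 was kept in 6 of 12 settings. Against precursors the rise was 4.41 (SE 0.75, edgeR adjusted p = 0.00357), called in 12 of 12 settings. Cnga2 was at 0 in all 4 precursor captures, at 0, 0 and 2.96 CPM (1 UMI) in intermediate cells and at 54.3, 9.81 and 9.06 CPM in late neurons. It did not pass the filter on low counts, and its summed level in late neurons, 33.8 CPM from 71 UMIs, was at least 22.4-fold above the floor for precursors. Replicate 1 gave most of these UMIs, and without it the level was 9.38 CPM from 9 UMIs, at least 4.34-fold above that floor. Cnga4 had 6 UMIs in late neurons and 0 at both earlier steps, which is at least 1.89-fold above the precursor floor and under the floor for intermediate cells, so its onset could not be placed at this depth. Without replicate 1 it was under both floors, with 1 late UMI.

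Omp was not detected before the last step. It had 0 UMIs in 177 precursors and in 87 intermediate cells of replicates 1, 2 and 4, which allows up to 1.69% and 3.45% of cells with a UMI, and 118, 58.9 and 9.06 CPM in late neurons. The summed late level of 78.0 CPM, from 164 UMIs, was at least 51.8-fold above the floor for precursors and at least 24.8-fold above that for intermediate cells. Without replicate 1, which gave most of these UMIs, it was 30.2 CPM from 29 UMIs, at least 14-fold and 6.85-fold above these floors. Like Cnga2 it did not pass the filter on low counts. With no filter, edgeR called both higher in late neurons than in precursors (adjusted p = 1.61e-19 for Omp and 9.82e-09 for Cnga2).

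In order of the level reached before the late step, relative to the late level of the same capture, the intermediate cells held 146% ± 38.1 of Gnas, 79.1% ± 33.1 of Gng8, 47.7% ± 17.7 of Gnal, 32.8% ± 31.5 of Gng13, 28.6% ± 19.0 of Adcy3, 10.9% ± 18.9 of Cnga2 and 0% of Omp and Ano2 (SD, n = 3). In replicates 1, 2 and 4, Gng13 stood at 4.02, 27.9 and 66.4% and Adcy3 at 50.5, 17.0 and 18.1%. Cnga2 stood at 0, 0 and 32.7%, the last from 1 UMI. Neighbours from Gng8 to Cnga2 did not differ beyond their spread, although Gng8 was above Gnal in each capture. In precursors the order was Gnas, Gng8, Adcy3 at 20.8% ± 6.14, Gnal at 11.6% ± 9.07, Ano2 at 3.42% ± 3.20, Gng13 at 1.59% ± 1.28, and Omp and Cnga2 at 0%. Neighbours from Adcy3 to Gng13 did not differ beyond their spread, although Adcy3 was above Gnal in each capture. Ano2 rested on 2 UMIs, and Cnga4 is left out of this order. Of the 6 members that could be tested, Gng13, Gnal, Adcy3 and Ano2 did not pass the filter on low counts through their precursor sums, so no count of members called is read from these steps. With no filter edgeR also called these 4 higher in late neurons than in precursors (largest adjusted p = 0.000397, for Adcy3).

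Inside the gate of Gap43 and Stmn3 alone, levels were compared by the late panel. Gated cells without a late panel UMI held 45.0 CPM of Gng13, those with 1 to 2 held 272 and those with 3 or more 732 (means of 4, 3 and 3 captures). Gng8 was at 223, 519 and 695 CPM in the same classes and Omp at 0.338, 5.20 and 73.1 CPM. Ano2 was at 2.56, 8.06 and 33.9 CPM, while Cnga2 was at 0.391, 0 and 31.8. The Gng13 means of the last 2 classes were led by replicate 1. With 3 or more late panel UMIs, replicates 1, 2 and 4 held 1564, 146 and 79 Gng13 UMIs, of 1136775, 264097 and 295087 in all. With 1 to 2 they held 140, 29 and 58, of 267946, 256389 and 320712. The first class also held most of the gated cells that failed the marker check: of its 41, 29, 39 and 18 cells, 16, 14, 13 and 1 were checked neurons. Among checked neurons only, Gng13 was at 112, 159 and 772 CPM in these classes, Gng8 at 503, 647 and 714, Omp at 0, 8.34 and 79.1 and Ano2 at 0, 11.2 and 35.1 (means of 3 captures). The Gng13 share of γ subunit UMIs was then 17.5% ± 7.33, 18.2% ± 9.28 and 47.3% ± 12.55 (SD, n = 3), against 15.1%, 31.4% and 46.7% in all gated cells. From the first class to the second that share fell from 15.1 to 8.89% in replicate 2 and from 25.7 to 18.3% in replicate 4 and was higher in replicate 1, at 11.7 and 27.4%. Without the failed cells the first classes thus did not differ beyond their spread, and the class with 3 or more late panel UMIs had the highest share in each of the 3 captures.

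With the steps of the first division, where early neurons were gated cells with Neurog1, Neurod1 or Nhlh1 and no late panel UMI, 1 capture with 10 early cells (WT replicate 4) entered. That arm holds 1 sum, whose own spread was not measured and is assumed to be that of the other groups, so these fits are given as values only. Between early neurons and precursors the log2 difference of Gng13 was 5.64 (SE 0.96, edgeR adjusted p = 0.0102), 1 call among 8 members, where 0.714% of 10371 genes were called (0.685% higher, 0.0289% lower). With no block its adjusted p was 0.335 in edgeR and 0 genes were called. Between late and early neurons 0 of 8 members were called by edgeR, where 0.0386% of genes were called (0.00964% higher, 0.0289% lower). Of the 8 members 1 had an unadjusted p under 0.05 and DESeq2 called 0. Over all genes, 911 had an unadjusted p under 0.05, and DESeq2 called 8.

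Co-detection of the γ subunits in single neurons followed in part how often each was detected. In the 316 gated WT cells, 139 held UMIs of both γ subunits, 98 of Gng8 only, 12 of Gng13 only and 67 of neither. Of 151 cells with Gng13, 92.1% also held Gng8, against 75.0% of all gated cells, and of 237 cells with Gng8, 58.6% held Gng13, against 47.8% of all. Without the gated cells that failed the check, 116 of 200 neurons held both, 68 Gng8 only and 6 Gng13 only, so that 95.1% of Gng13 cells held Gng8, close to the 92.0% of all checked neurons. Thinned to 2000 UMIs per cell, 71.7% of gated Gng13 cells held Gng8 (50.5% of all) and 48.1% of Gng8 cells held Gng13 (33.9% of all). Of 7 thinned cells with Ano2, 2 held Gng8. Cells are not replicates, and these shares are descriptions.

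**Figure D3:**
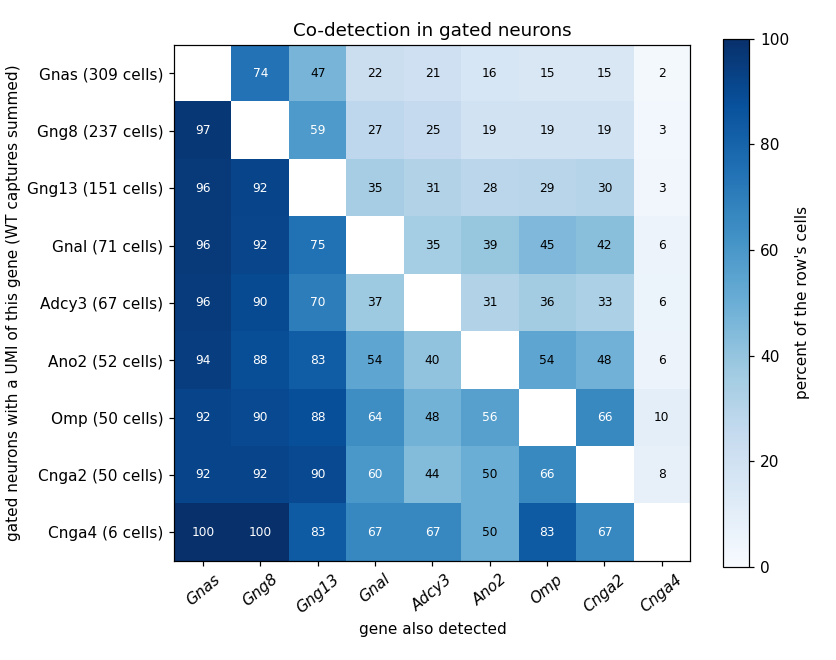
Percent of gated WT neurons with a UMI of the row gene that also held a UMI of the column gene, over the summed 4 captures. Cells with Omp, Cnga2 or Ano2 hold Gng8 and Gng13 in most cases, and few Gng8 cells hold Omp (19.0%).

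Cells with Omp often held other members. Of 50 such WT cells, 90.0% held Gng8, 88.0% Gng13, 66.0% Cnga2, 64.0% Gnal, 56.0% Ano2, 48.0% Adcy3 and 10.0% Cnga4, against 75.0%, 47.8%, 15.8%, 22.5%, 16.5%, 21.2% and 1.90% of all gated cells. Among checked neurons 40 of 45 Omp cells held Gng8, or 88.9% against 92.0% of all, so no excess of Gng8 was seen there, while 86.7% held Gng13 (61.0% of all) and 66.7% Cnga2 (22.0% of all). Thinned to 2000 UMIs, 20 cells held Omp, of which 15 held Gng13, 14 Gng8, 8 Gnal, 4 Adcy3 and 3 Ano2, against 33.9%, 50.5%, 7.99%, 4.47% and 2.24% of all 313. Cnga2 was found in 0 of the 20, which allows up to 3 of 20, against 3.51% of all, so its overlap with Omp was not seen at that depth. The unthinned share with Gng13 varied by capture: 35 of 35 Omp cells in replicate 1, 4 of 9 in replicate 2, 4 of 4 in replicate 4 and 1 of 2 in replicate 5. Replicate 1 held 35 of the 50 Omp cells. Of the 15 in the other captures, 12 held Gng8, 9 Gng13, 8 Ano2, 7 Cnga2, 7 Adcy3 and 5 Gnal, where 119, 66, 26, 10, 36 and 26 of all their 173 gated cells did. In the 5 Omp cells of replicate 2 without Gng13, Omp was at 283 CPM and Gng8 at 509 CPM, against 219 and 1143 CPM in the 4 cells with it, and median depths were 7933 and 8866.5 UMIs. Of 50 cells with Cnga2, 90.0% held Gng13 and 66.0% Omp, and of the 10 outside replicate 1, 8 and 7 did. Of 71 with Gnal, 74.6% held Gng13 and 45.1% Omp, and of the 26 outside replicate 1, 15 and 5 did. Of 6 cells with Cnga4, 5 held Omp and 4 Cnga2.

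The complete set was rare at this depth. Of Gnal, Adcy3, Cnga2 and Ano2, all 4 were detected in 8 of 102 checked neurons of replicate 1, 1 of 43 of replicate 2, 0 of 48 of replicate 4 and 1 of 7 of replicate 5, and every one of these 10 cells also held Omp. In Prokr2Cre library 2, 9 of 190 checked neurons held all 4, of which 8 held Omp. None of the 4 was detected in 40, 26, 18 and 2 checked WT neurons. In replicate 1 the median depths of cells with 0, 1, 2, 3 and 4 of them were 8143, 12096, 10803, 11185 and 13516 UMIs. They were 7878, 8458, 16388, 12276 and 22545 in replicate 2, with 1 cell of all 4, and 7722, 9673, 9827 and 27932.5 for 0 to 3 in replicate 4, with 2 cells of 3. In Prokr2Cre library 2 the medians were 19626 UMIs in cells with none and 18988 in cells with all 4. The part of depth in these counts was not tested beyond thinning.

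In late neurons of the Prokr2Cre libraries Gnas, Gng8 and Gng13 were again the most abundant members, in this order. In the 14 late neurons of library 1, Gnas was at 1746 CPM, Gng8 at 501, Gng13 at 409 and Omp at 74.1. In the 184 late neurons of library 2, Gnas was at 1123 CPM, Gng8 at 729, Gng13 at 398, Omp at 87.2 and Gnal at 26.6. Ano2 was at 49.7 CPM in library 2 (95% Poisson interval 42.8 to 57.5, counting error only), above the 26.3 to 29.0 of the WT captures, and at 21.2 CPM in library 1 (7.77 to 46.1), from 6 UMIs. In library 2 Cnga4 was at 6.79 (4.40 to 10.0), from 25 UMIs. The Gng13 share of γ subunit UMIs was 45.0% and 35.3%, within the range of late WT neurons, and the Gnal share of α subunit UMIs was 1.39% and 2.32%, under all 3 late WT values. The checked neurons of library 2 included 30 cells with terminal nerve markers, with more Gnas and less Gnal than the others (below). The Gnal share was not computed without them. Transgenes, capture and the version of the counting software differ together between these libraries and WT, and 1 library was sorted. Strain may differ as well, and these cannot be told apart.

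Library 2 held 96 gated cells with Omp, of which 66 held Gng13 (68.8%) and 30 did not. The median depths of those with and without Gng13 were 20220 and 19724 UMIs. The cells without it held Omp at 152 CPM, Gng8 at 530, Cnga2 at 41.6 and Ano2 at 57.1, against 188, 760, 48.8 and 71.7 CPM in those with it. Cells with Omp and no Gng13 UMI were thus found in replicates 2 and 5 and in both Prokr2Cre libraries, and not among the 35 of replicate 1 or the 4 of replicate 4.

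Among checked gated neurons of library 2, the 30 cells with at least 3 terminal nerve markers were set beside the other 160. Gnas was at 2414 CPM (95% Poisson interval 2308 to 2524) in them and at 836 (804 to 870) in the others, and Gng8 at 1075 (1004 to 1149) and 649 (620 to 678). Gng13 was at 242 (209 to 279) and 429 (406 to 453), Gnal at 11.2 (5.14 to 21.3) and 29.8 (23.9 to 36.6), Cnga2 at 7.50 (2.75 to 16.3) and 36.7 (30.2 to 44.2), and Ano2, from 16 UMIs in the 30 cells, had intervals of 11.4 to 32.5 and 47.5 to 64.6. Omp was at 56.2 (41.0 to 75.2) and 91.3 (80.8 to 103), while Adcy3 was at 22.5 and 23.5. The 30 cells are of 1 library, the intervals cover counting error only, and no test was made. The 8 such WT neurons were too few to compare.

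Of 19 other genes of the pathway and of related G protein signalling, 18 were measured. In gated neurons against cells outside, 9 of the 17 tested were higher and 3 lower, where 16.1% of all genes were called higher and 16.4% lower, with a median log2 difference of 0.55, against -0.09 over all genes tested. Among those higher were the γ subunit Gng3 (4.93), the cyclic AMP phosphodiesterase Pde4a (3.11), Gnao1, the α subunit of vomeronasal and many other neurons (2.69), and the calmodulin-dependent phosphodiesterase Pde1c (2.35). Arrb2, a β-arrestin (1.66), Ncam2, the olfactory cell adhesion molecule (1.42), and the G protein subunits Gnb1 (0.95) and Gng2 (0.55) were higher as well. The 3 lower are a share close to that over all genes: Gnb2 (-0.44), the receptor kinase Grk3 (-0.75) and the channel Trpm5 (-1.89). Trpm5 and Grk3 were low on both sides, with 2.00 and 10.7 CPM in neurons. With no block 5 of the 9 higher genes (Gng3, Pde4a, Gnao1, Arrb2 and Gnb1) and 0 of the 3 lower were called.

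From precursors to late neurons, 9 of the 14 tested rose and 1 fell, where 10.1% of all genes were called higher and 8.74% lower, with a median log2 difference of 1.24, against 0.00 over all genes. Among them, Ncam2 rose by 2.92 (SE 0.26), Gng3 by 2.63, Pde4a by 2.04, Arrb2 by 1.84, Gnao1 by 1.60, Slc12a2, the chloride importer, by 1.33, Pde1c by 1.30 and Gnb1, a β subunit, by 0.98, and Gnb2 fell by 0.72. From precursors to intermediate cells 5 of the 14 rose, where 3.76% of all genes were called higher, among them Ncam2 (2.87), Gng3 (2.25), Pde1c (1.32) and Slc12a2 (1.17). With no block none of the 5 was called at that step, and of the 9 that rose to the late step 4 were also called without it (Gng3, Gnao1, Arrb2 and Slc12a2), while Gnb2 was not. From intermediate cells to late neurons edgeR called 0 of the 14 (1.53% of all genes), of which 5 had an unadjusted p under 0.05, and DESeq2 called 0.

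Outside the neuronal lineage the members fell into those near 0 and those in use elsewhere. Omp, Cnga2 and Cnga4 had 8, 4 and 1 UMIs in 27846 WT cells, and Ano2 had 66. Gng13 was at 1.51 ± 0.812 CPM, Gnal at 3.19 ± 1.27, Gng8 at 11.8 ± 1.06, Adcy3 at 11.9 ± 5.16 and Gnas at 1581 ± 115 (SD, n = 4). Classes were named by at least 3 markers of a class, more than of any other.

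Gnas, which serves hormone and other receptors in most tissues, was highest in endothelial cells, at 4144, 6234, 4360 and 5382 CPM in replicates 1, 2, 4 and 5, above every capture of every other class described. Pericytes held 2699 ± 251 CPM, mesenchyme 1624 ± 130, cartilage 1555 ± 37.7, epithelium 1044 ± 83.1 and immune cells 638 ± 128 (SD, n = 4). Mesenchyme and cartilage did not differ beyond their spread. The log2 difference of endothelium over mesenchyme was 1.76 (SE 0.13, edgeR adjusted p = 3.36e-07), where 46.4% of 13841 genes were called (20.1% higher, 26.3% lower). Mesenchyme was above epithelium by 0.66 (SE 0.12, edgeR adjusted p = 0.000669), where 49.9% were called (26.1% higher, 23.8% lower). Of 5 members tested there, 3 were higher in mesenchyme and 1 lower.

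**Figure D4:**
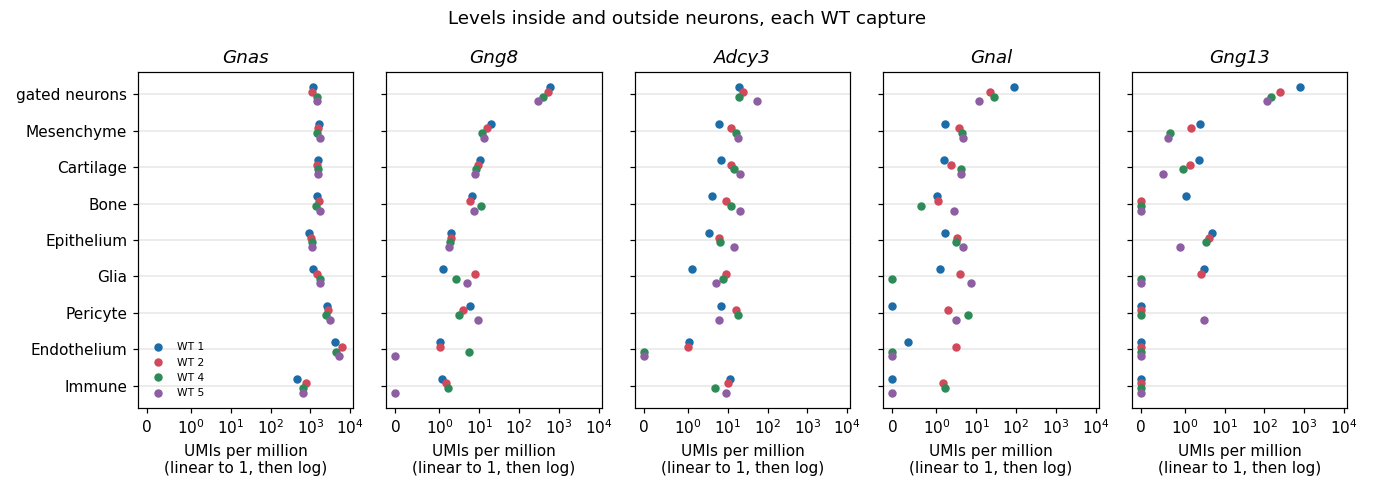
Levels of Gnas, Gng8, Adcy3, Gnal and Gng13 in gated neurons and in 8 classes of other WT cells, in CPM on an axis that is linear to 1 and logarithmic above. Each point is 1 WT capture. Gnas is highest in endothelium, and Gng8, Gnal and Gng13 are highest in gated neurons in every capture.

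Gng8 was found in mesenchyme at 20.1, 15.7, 11.6 and 13.5 CPM and in epithelium at 1.92, 1.96, 1.84 and 1.76 CPM, with no overlap. The log2 difference was 3.08 (SE 0.26, edgeR adjusted p = 9.53e-07), called in 10 of 10 settings. A UMI of Gng8 was held by 7.02 to 16.8% of mesenchyme cells, against 0 to 1.92% of immune cells, at median depths of 5200 to 11761.5 and 8560.5 to 14047 UMIs, and by 2.32 to 3.71% and 0 to 0.877% after thinning. In cartilage it was at 9.11 ± 1.15 CPM and in endothelium at 1.93 ± 2.52 (SD, n = 4), lower than in mesenchyme by -3.50 on the log2 scale (SE 0.46, edgeR adjusted p = 6.02e-05). Gng8 passed the filter on low counts there through its mesenchyme sums, and with no filter its edgeR adjusted p was 4.95e-07.

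Gng13 ran the other way between these classes. It was at 4.89, 4.08, 3.42 and 0.880 CPM in epithelium and at 2.39, 1.45, 0.653 and 0.612 CPM in mesenchyme, and the mesenchyme level was lower by -1.36 (SE 0.36, edgeR adjusted p = 0.0116). The epithelial value of replicate 5 overlaps mesenchyme, and the call was lost with no block (0.204) and without replicate 4 (0.0628). Endothelial and immune cells held 0 UMIs of it. It was called lower in endothelium than in mesenchyme (edgeR adjusted p = 0.0176), a call lost with no block (0.117) and with DESeq2 (0.0645). Gng13 passed the filter on low counts there through no endothelial sum, and with no filter its edgeR adjusted p was 0.00776.

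Adcy3 was at 6.06, 11.9, 15.8 and 18.0 CPM in mesenchyme, at 3.36, 6.05, 6.31 and 14.1 CPM in epithelium and at 0.519 ± 0.600 CPM in endothelium. It was higher in mesenchyme than in epithelium by 0.88 (SE 0.22, edgeR adjusted p = 0.00502) in 4 of 4 captures, a call lost with no block (0.147) and without replicate 2 (0.0502). It was lower in endothelium than in mesenchyme by -3.24 (SE 0.51, edgeR adjusted p = 0.000255). Adcy3 passed the filter on low counts there through no endothelial sum, and with no filter its edgeR adjusted p was 7.81e-06. Replicate 1 was the lowest capture in mesenchyme, in epithelium and in all cells outside neurons, and Ano2 and Gnal were also lowest there outside neurons. Replicate 1 was counted with another version of the counting software per the file headers, and version and capture cannot be told apart. Gnal did not differ between mesenchyme and epithelium beyond the spread (log2 difference 0.19, SE 0.29, edgeR adjusted p = 0.628).

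Over 46 sums per WT capture and class or step, the genes whose level was most like each member were described by Pearson's r of log2(CPM + 10), among 12436 genes with at least 20 CPM in some sum. Omp was most like Faim2 (r = 0.9951), Gng8 like the transcription factors Olig2 (0.9792) and Uncx (0.9772), and Gng13 like Calb2, a calcium-binding protein of neurons (0.9591), and Hrk (0.9575). Gnal was most like Hrk (0.9399) and next like Gng13 (0.9356). Cnga2 was most like BC051077 (0.9474) and next like Omp (0.9406), and Ano2 like AC118542.1 (0.9221). Gnas (Dock6, 0.8397) and Adcy3 (Map3k12, 0.7865) had no gene as close. Cnga4 was under 20 CPM in every sum. Omp and Cnga2 were at or near 0 outside the 3 late sums, so their r rests mostly on those, of which replicate 1 was highest. The sums share captures, and some share cells, so r is a description.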

How the data were processed

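Single cells of whole embryonic noses were measured with 10x Chromium 3′ libraries, per the labels' protocols. The deposited matrices hold raw UMI counts per gene and barcode with no normalization by the authors. The submitters' processing notes name Cell Ranger 4, Seurat 4.3.0 and mm10. The file headers name other Cell Ranger versions, which differ between WT replicate 1, the other WT libraries and the Prokr2Cre libraries. Whether intronic reads or strand were used in counting is not given in the sources used here. Library totals ran from 16773781 to 89800259 UMIs, and intervals and floors (3 counts) cover counting error only.

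Genes shared by all libraries under a unique symbol were used, and CPM was computed from the sum of a group's cells over that sum's total. Summed counts per WT capture and class were tested with edgeR 4.0.16 in R 4.3.3 (TMM, filterByExpr, quasi-likelihood test, Benjamini-Hochberg adjustment over all genes tested, threshold 0.05, at least 10 cells per sum). The capture was the block, since both sides of each contrast come from the cells of the same capture. DESeq2 1.42.0, other scalings, filters, gates, cell filters and leaving out each WT replicate were alternatives. Doublets were not called with a caller, and the alternative for them left out neurons with 3 markers of another class. The members, the pathway list and the tests were chosen with earlier results of these data known. The marker check, its steps and the contrasts between other classes were added after the cells had been counted. The genes named are all 9 members, the pathway genes called in a contrast and the genes most like each member, apart from a pathway gene that is counted in the list and not reported here. Counts were also simulated with 4-fold changes, the same dispersion for every gene and no effect of capture. They therefore do not give the error rates of the real contrasts. In them, 147 of 180 changed genes were recovered for neurons against other cells, with 5 false among 152 calls. For late neurons against precursors 155 of 166 were recovered with 2 false, and for late neurons against intermediate cells 152 of 166 with 5 false. For mesenchyme against epithelium 182 of 182 were recovered with 11 false among 193 calls.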

Additional observations from a re-analysis of the deposited data

Results flagged for a closer look

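In 3 of 38 sets of 4 WT captures (a member in a cell class with at least 20 UMIs), 1 capture lay farther from the other 3 than Dixon's 95% critical value allows, which chance gives in about 1 of 20 sets. Adcy3 in gated neurons was at 55.2 CPM in WT replicate 5, from 24 UMIs in 27 cells, and at 19.1 to 23.9 CPM in the others. A single cell held 16 of these UMIs, and without it the value was 19.4 CPM. Cnga2 in gated neurons was at 33.6 CPM in WT replicate 1, from 72 UMIs, and at 4.60 to 5.02 CPM in the others. Ano2 outside neurons was at 0.0361 CPM in WT replicate 1, from 3 UMIs, and at 0.401 to 0.458 CPM in the others.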

How the results depend on the processing

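Of 635 recomputed log2 differences of members, 581 kept their direction and side of the threshold, 31 lost a call, 12 gained one and 11 turned, all 11 in results that were not called. With no replicate block, genes called fell from 5037 to 2143 for neurons against other cells, 1443 to 379 for late neurons against precursors, 495 to 21 for intermediate cells against precursors, 6908 to 3533 for mesenchyme against epithelium and 6422 to 4031 for endothelium against mesenchyme. They fell to 0 for late against intermediate (from 117), early against precursors (from 74) and late against early (from 4). Leaving out 1 WT replicate gave 3256 to 5660 (lowest without replicate 2) for neurons against other cells, 481 to 1444 for late against precursors, 76 to 500 for intermediate against precursors, 0 to 110 for late against intermediate (each lowest without replicate 2) and 5 to 23 for late against early. The lone early sum is then assumed to vary like the other sums. With no filter on low counts the calls were 254 for early against precursors, 123 for late against early, 1039 for intermediate against precursors and 482 for late against intermediate. DESeq2 gave 742 for late against precursors, 59 for late against intermediate and 8 for late against early. A looser gate gave 913, 29 and 7 for these. With sums of at least 5 cells there were 128 for early against precursors, 297 for intermediate against precursors and 62 for late against intermediate. WT replicate 3 in place of 4 gave 44 for late against intermediate. Late against early also had 7 calls with RLE size factors, 29 with the stricter cell filter and 9 with at least 2 late panel UMIs. The causes were not tested.

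Differences that turned were small or rested on few or no UMIs. Early against precursors, Omp was at 0 CPM on both sides, so its fitted value of 2.48 is no measured difference. It was 0 with DESeq2 and 0 with no block. Gnas was at 0.013 with the looser gate (-0.31) and Ano2 at 0.82 with DESeq2 (-1.71). Late against early, Gng8 (-0.07) was at 0.36 with no replicate block, 0.30 with the looser gate, 0.61 with at least 5 cells and between -0.23 and 0.055 with 1 replicate left out. Without 1 replicate Gng8 ran from -0.025 to 0.43 for intermediate against precursors and from -0.027 to 0.62 for late against intermediate, and Adcy3 from -0.39 to 0.85 for intermediate against precursors. The contrasts with early neurons could not be fitted without replicate 4, with replicate 3 in its place, with the stricter gate, without cells holding other markers or with neuronal markers required, since no early sum was left. Depth limits Cnga4, with 8 UMIs in gated WT neurons.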
